A study of Mus musculus with 12 samples.

Results

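The CREB/ATF family members followed here are Atf3, Crem, Creb1, Atf1, Atf2, Atf4, Atf5, Atf6 and Atf7. They were taken from the deposited transcript table by their gene symbols, and they comprise 166 of the 189364 transcripts that carry a symbol, or 9 of 52169 genes. Crem has 53 transcripts in the table, Atf2 has 37, Creb1 21, Atf7 18, Atf1 15, Atf6 9, Atf5 5, and Atf3 and Atf4 have 4 each. All transcripts of Crem were followed one by one, because the gene makes both long forms and short inducible forms.

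These proteins are basic leucine zipper factors that bind cAMP response elements as pairs. Creb1, Atf1 and the long activator forms of Crem are present before a stimulus and are switched on by phosphorylation, chiefly by protein kinase A, the kinase that dopamine D1 receptors activate through cAMP in striatal medium spiny neurons. Atf3 and the short Crem forms known as ICER are made after the stimulus, and ICER lacks the activating part and acts as a repressor. Atf4 and Atf5 serve the integrated stress response, Atf6 is a membrane-bound sensor of the unfolded protein response, and Atf2 and Atf7 are targets of stress-activated kinases.

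Striatal RNA came from C57BL/6J mice in which 6-OHDA, a toxin of catecholamine neurons, had been injected on the right side into the medial forebrain bundle, after desipramine to spare noradrenergic neurons. All groups received L-DOPA (10 mg/kg) with benserazide (7.5 mg/kg), which blocks the conversion of L-DOPA outside the brain, and were killed 1 hour after the last dose. The 4 groups are the unlesioned and the lesioned striatum after a single dose (acute) and after 9 daily doses (chronic), with 3 libraries each. None of the 12 libraries came from mice without L-DOPA, so a difference between the sides is the difference of their responses to lesion and drug together. The RNA came from punches of striatal tissue with all its cell types, so fewer cells of a type and less RNA per cell cannot be told apart. The labels count 12 mice, whereas the study's text uses the unlesioned side as the control of the same mouse.

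Reads were counted on every transcript they overlap, which gave 87695043 to 173116525 counts per library, or 18373807 to 36492574 with 1 transcript per gene. Levels are given in CPM, counts scaled to the TMM-normalized total over all transcripts and not to the number of reads, and a gene is represented by its lead transcript, the one with the highest mean count over the 12 libraries. Where no read was counted, the level may still reach 3 counts, or 0.0171 to 0.0347 CPM, a floor for counting error only. Of the 166 member transcripts, 159 had enough reads to be tested in every comparison and 5 in none; 2 of those 5, 1 of Atf7 and 1 of Creb1, had no library above 3 counts. As a check of the tissue, 5 markers of D1 medium spiny neurons (Drd1a, Tac1, Pdyn, Isl1 and Chrm4) summed to between 132.0 and 344.3 CPM in the 12 libraries and 4 markers of D2 medium spiny neurons (Drd2, Penk, Adora2a and Gpr6) to between 500.5 and 1055 CPM, and none of them was at the floor. The second library of the unlesioned chronic group stood apart in choroid plexus markers, which summed to 462.9 CPM there and to between 0.485 and 3.00 CPM in the others. Cortical markers ranged from 1.54 to 38.8 CPM and were lower on the lesioned side in each same-numbered pair of libraries. Between the sides, 4 of 4 markers of D2 medium spiny neurons were called higher after acute and 1 of 4 after chronic L-DOPA. Of 5 markers of D1 neurons 1 was higher and 4 were lower after acute L-DOPA, and 2 were higher and 2 lower after chronic L-DOPA. Of 5 general markers of medium spiny neurons 1 was higher and 3 were lower after acute L-DOPA, and 1 was higher after chronic L-DOPA. Over all genes 8.16% were higher and 7.16% lower after acute and 8.45% and 5.2% after chronic L-DOPA. The markers Pdyn, Tac1 and Penk are also in the list of genes with CREB sites given below. Of 5 astrocyte markers 1 was higher after either treatment, and in the fit that blocks on replicate number 4 were higher after acute and 2 after chronic L-DOPA. With that block 2 of 5 microglia markers were higher after acute L-DOPA. It called 13.3% of all genes higher after acute and 12.8% after chronic L-DOPA. Without the block 1 of 5 oligodendrocyte markers was higher after acute L-DOPA. The part of these shifts in the differences given here was not tested.

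The promoters of Atf3 and Atf4 are shown because these are the members with the largest lesion differences for which RefSeq promoter sequences were at hand. They run from 250 bases before to 50 bases after the annotated start (RefSeq, GRCm38.p6), 5′ to 3′ on the gene's strand, and capitals mark the motif letters found. The Atf3 window is chr1:191183284-191183583 on the minus strand, and the same sequence stands once on mm9 chromosome 1, at chr1:193007163-193007462. The Atf4 window is chr15:80254934-80255233 on the plus strand, or chr15:80085364-80085663 in mm9.
Atf3: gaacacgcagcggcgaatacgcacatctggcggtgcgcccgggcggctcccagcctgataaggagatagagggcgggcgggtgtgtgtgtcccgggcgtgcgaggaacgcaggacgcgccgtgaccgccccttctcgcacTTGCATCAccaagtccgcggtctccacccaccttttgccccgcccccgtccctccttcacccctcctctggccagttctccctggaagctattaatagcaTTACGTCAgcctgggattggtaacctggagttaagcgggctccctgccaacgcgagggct
Atf4: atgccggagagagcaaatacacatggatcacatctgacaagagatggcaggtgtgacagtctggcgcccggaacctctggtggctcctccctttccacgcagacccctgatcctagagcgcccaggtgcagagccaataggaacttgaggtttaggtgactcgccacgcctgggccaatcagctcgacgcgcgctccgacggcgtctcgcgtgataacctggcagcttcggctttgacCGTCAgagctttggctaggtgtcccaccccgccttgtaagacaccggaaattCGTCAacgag

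Promoters were at hand for 7 of the 9 members, 8 windows in all since Atf5 has 2, and 4 words were searched on both strands in these and in all 32851 promoters of the same length. The palindromic cAMP response element TGACGTCA stands in 1.79% of all promoters and in none of the 8. The variant TTACGTCA, held by 0.499% of promoters, begins 10 bases before the Atf3 start. The word TTGCATCA, a form of the element that C/EBP and ATF factors bind together, is held by 0.895% of promoters and begins 110 bases before the Atf3 start. The shorter core TGACG, which TGACGTCA contains on both strands and TTACGTCA on one, is held by 20.8% of promoters; it occurs in Atf3 on the reverse strand inside TTACGTCA, in Atf4 on the reverse strand at positions -12 and 41 from the start, and in Atf1 at position -90. These matches describe letters only, and no binding was measured here.

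After a single dose of L-DOPA, Atf3, Atf4, Crem and Atf5 were higher and Atf6 lower on the lesioned side. Creb1, Atf1, Atf2 and Atf7 did not pass the test by their lead transcripts in the fit without a block. With the replicate number as a block in edgeR, which pairs the sides, Creb1 was lower too (-0.23, adjusted p = 0.01), as were 11.8% of all genes. Of 161 member transcripts tested, 56 were higher and 10 lower at an adjusted p under 0.05 in edgeR's quasi-likelihood test, against 6.85% higher and 6.02% lower among all transcripts tested. The count of 10 was 3 without the third and 6 without the second unlesioned library, and 6 in the fit over all 12 libraries. By lead transcript, 4 of 9 genes were higher and 1 lower, against 8.16% and 7.16% of all genes, and in the same 5 genes the libraries of the sides did not overlap (17.1% of all genes lay apart upwards and 17.8% downwards). The median log2 difference over the 9 genes was 0.08, and over all lead transcripts 0.02. The transcripts of a gene share reads and are not independent events. The members were chosen with earlier results of these data known, so these counts are not independent evidence. P-values measure the spread between these libraries, which the labels do not describe beyond the replicate number.

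After chronic L-DOPA, the lesioned side exceeded the unlesioned side in Atf3, Crem and Atf4 and in no other member. Here 51 of 160 member transcripts were higher and 0 lower (background 7.71% higher and 4.33% lower, edgeR); 5 transcripts, all of Atf2, were lower at an unadjusted p under 0.05, and DESeq2 also called 0 lower. By lead transcript 3 of 9 genes were higher and 0 lower, against 8.45% and 5.2% of all genes. The sides lay apart upwards in these 3 and downwards in Atf7, against 16.5% and 15.9% of all genes.

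**Figure D1:**
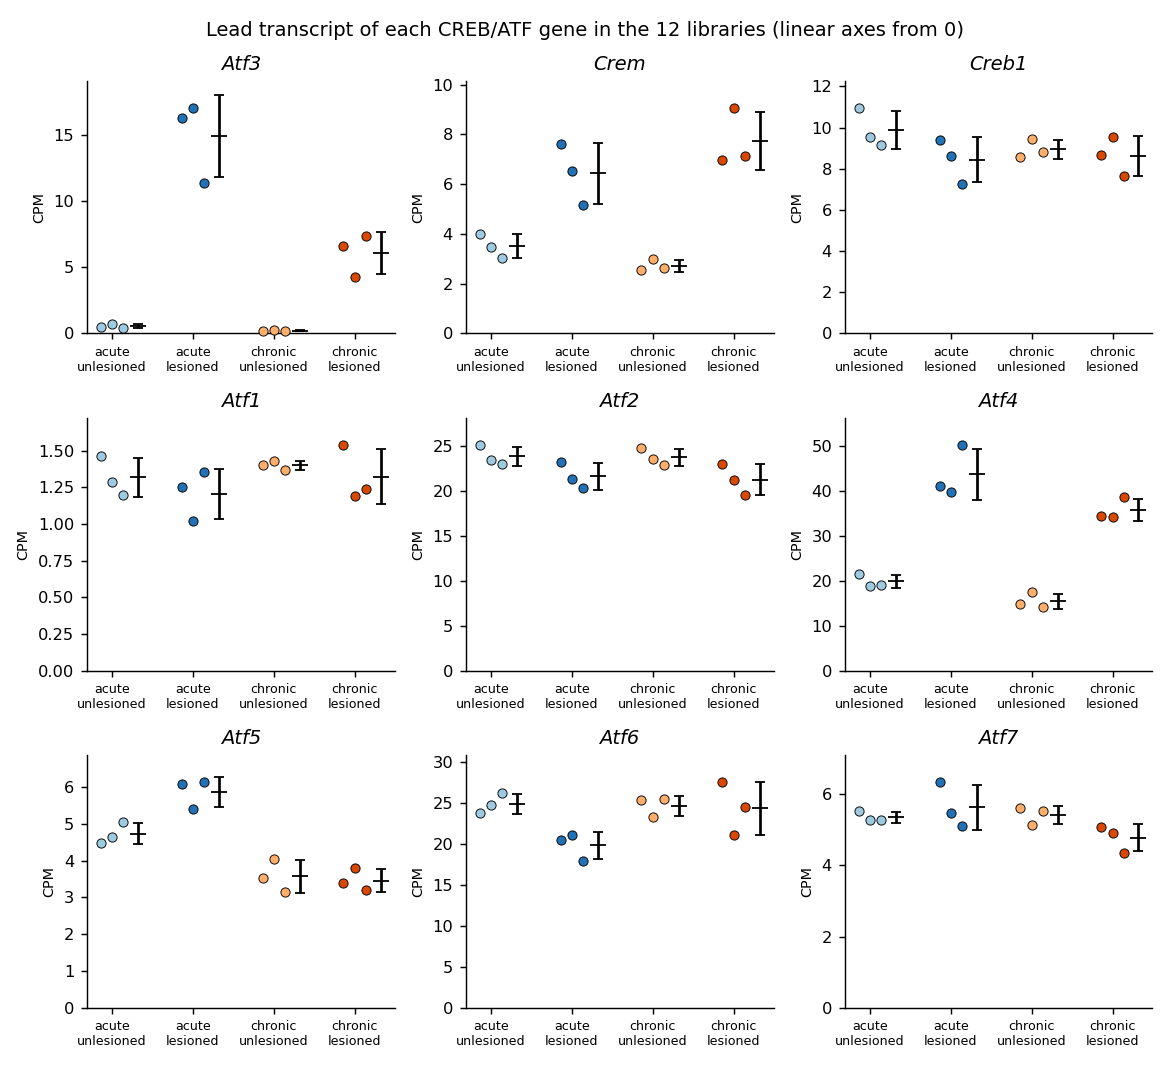
Level of the lead transcript of each gene in the 12 libraries, in CPM on linear axes from 0; points are libraries, and the bars give mean and SD of the 3 libraries of each group. Atf3, Crem and Atf4 lie higher in both lesioned groups without overlap, Atf5 lies lower in both chronic than in both acute groups, and Creb1, Atf1 and Atf2 overlap between the sides.

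Atf3, an early-response factor of stressed and stimulated neurons, gave the largest difference among the members. Its lead transcript NM_007498 (chr1:192994175-193007212, minus strand, mm9, 4 exons) held 91, 103 and 58 reads in the unlesioned acute libraries against 2153, 1473 and 1218 in the lesioned ones. As levels, the unlesioned acute libraries were at 0.518, 0.742 and 0.435 CPM and the lesioned ones at 16.3, 17.0 and 11.4 CPM, so that the groups lay far apart. The chronic libraries held 21, 29 and 32 reads (0.193, 0.242 and 0.215 CPM) on the unlesioned side and 578, 463 and 811 reads (6.58, 4.28 and 7.39 CPM) on the lesioned side. Both chronic groups were thus lower than the acute group of the same side, without overlap.

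The lesion difference of Atf3 had nearly the same size after either treatment. It was 4.73 ± 0.19 on the log2 scale (SE, edgeR adjusted p = 8.24e-09) or 26.45-fold after acute L-DOPA and 4.80 ± 0.23 (adjusted p = 4.13e-07) or 27.9-fold after chronic L-DOPA. The difference of these differences was 0.08 ± 0.37 (adjusted p = 0.94), with an error that leaves room for changes of either sign. All 4 Atf3 transcripts were higher in both comparisons, between 4.52 and 4.73 after acute and between 4.48 and 4.80 after chronic L-DOPA on the log2 scale.

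Atf3 was lower after chronic than after acute L-DOPA on both sides. In the lesioned striatum the log2 difference was -1.29 ± 0.19 (edgeR adjusted p = 0.00108), or 0.409 times the acute level, and all 4 transcripts were lower. In the unlesioned striatum it was -1.37 ± 0.24 (adjusted p = 0.0213), or 0.386 times, and 3 of 4 transcripts were lower. That second call was lost in several fits: the adjusted p rose to 0.0996 without the first and 0.0905 without the second acute library, to 0.0673 without the first and 0.0803 without the third chronic one, and to 0.0515 with counts summed over the gene's transcripts. Without the library with choroid plexus RNA it was -1.46 (adjusted p = 0.00601). The comparisons share libraries, so the values of the 2 treatments and the 2 sides are not independent of each other.

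**Figure D2:**
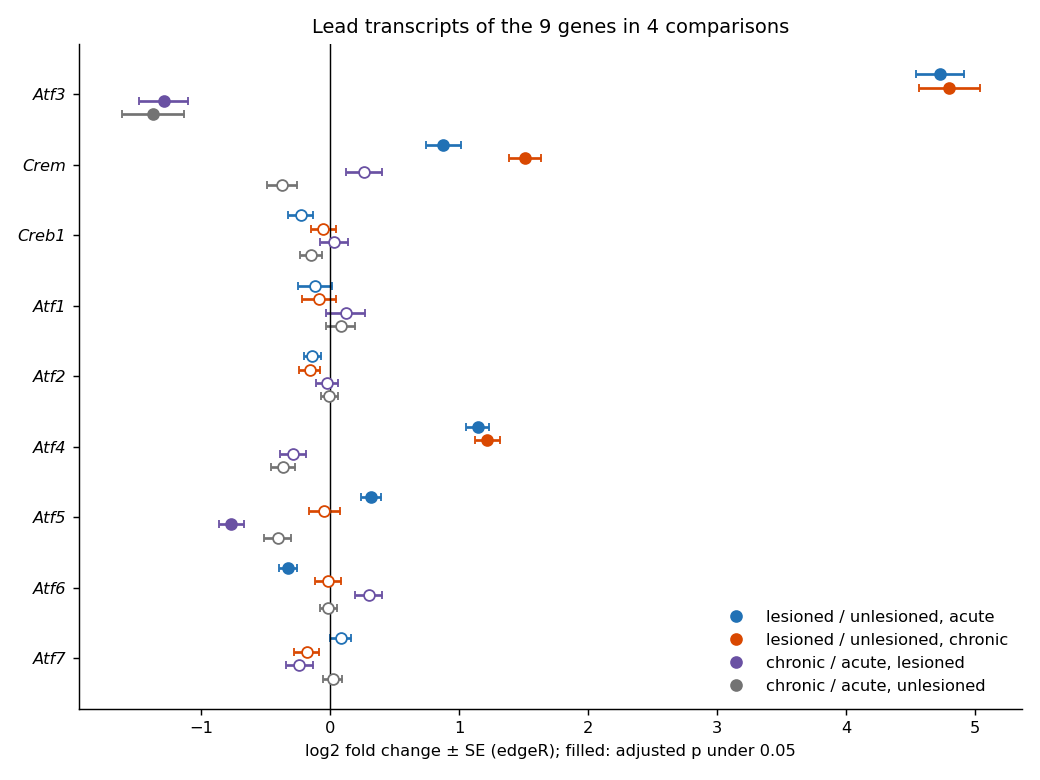
Log2 fold change of the lead transcript of the 9 genes in the 4 comparisons, with SE; filled points have an adjusted p under 0.05 in edgeR. Atf3 stands at 4.73 and 4.80 between the sides, Atf4 and Crem between 0.88 and 1.51, and the values of the other 6 genes between -0.77 and 0.32.

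Crem encodes activators and, from internal starts, repressors. Its lead transcript ENSMUST00000082141 (chr18:3266354-3337587, minus strand, mm9, 9 exons) is a long form. It was at 4.00, 3.48 and 3.04 CPM in the unlesioned and 7.62, 6.51 and 5.17 CPM in the lesioned acute libraries. After chronic L-DOPA it was at 2.53, 2.98 and 2.63 CPM in the unlesioned and 6.97, 9.06 and 7.12 CPM in the lesioned libraries. The sides did not overlap after either treatment.

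The lesion difference of this transcript was 0.88 ± 0.13 on the log2 scale (edgeR adjusted p = 0.00124, 1.84-fold) after acute and 1.51 ± 0.12 (adjusted p = 2.35e-05, 2.84-fold) after chronic L-DOPA. The chronic difference exceeded the acute one by 0.63 ± 0.20 (adjusted p = 0.0952), which did not pass the test. With the replicate number as a block, which pairs the sides of each treatment, the same difference was 0.63 ± 0.10 (adjusted p = 0.00118), in DESeq2 its adjusted p was 0.0431, and without the first lesioned acute library it was 0.78 (adjusted p = 0.0469). Between the treatments, the lead transcript differed by 0.26 ± 0.14 in the lesioned striatum (adjusted p = 0.207) and by -0.37 ± 0.11 in the unlesioned striatum (adjusted p = 0.0991), neither called. Without the library with choroid plexus RNA the unlesioned value was -0.45 (adjusted p = 0.0292).

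The 53 Crem transcripts were divided by position alone. They start in 5 clusters along 3266046 to 3337746 of chromosome 18, with 20 transcripts near 3337 kb, 12 near 3325 kb, 4 near 3309 kb, 8 near 3299 kb and 9 near 3281 kb, from 5′ to 3′ since the gene is on the minus strand. Starts 5′ of the middle of that span (3301896) were taken as long and those 3′ of it as short. The short class is thus one of position and joins the starts near 3299 and near 3281 kb. Transcripts near 3299 kb can carry exons 5′ of the start near 3281 kb, such as 684 bases in ENSMUST00000122958 with its 8 exons. The 9 transcripts near 3281 kb lie wholly 3′ of them. Some transcripts of either kind end before the 3′ part of the gene, 3′ of 3281767, and were kept apart, since they share no exon with it. This gave 29 long and 14 short transcripts that reach the 3′ part, and 7 long and 3 short ones that do not.

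The transcripts that reach the 3′ part rose together, whichever start they are annotated with. After acute L-DOPA 29 of 29 long and 14 of 14 short transcripts were higher on the lesioned side, by 0.77 to 0.95 (median 0.88) and by 0.84 to 1.06 (median 0.95) on the log2 scale. After chronic L-DOPA all of both were higher again, by 1.20 to 1.58 (median 1.40) and by 1.23 to 1.65 (median 1.54). The 9 short transcripts near 3281 kb alone were higher by 0.85 to 1.06 (median 0.92) after acute L-DOPA. After chronic L-DOPA these 9 were higher by 1.41 to 1.65 (median 1.46). The long transcripts share exons with the short ones, so these counts do not separate the forms.

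The transcripts that end before the 3′ part did not pass the test. Of 7 long ones 0 were called in either comparison by edgeR and 0 by DESeq2, with 1 at an unadjusted p under 0.05 after acute and 3 after chronic L-DOPA. Their log2 differences ran from 0.07 to 0.86 (median 0.17) after acute and from 0.39 to 0.72 (median 0.46) after chronic L-DOPA. The highest acute value, 0.86, was that of ENSMUST00000132334, which was singled out after its values were seen (adjusted p = 0.0971), and the other 6 were at or under 0.18. Of the 3 short ones 2 could be tested, at 0.14 and 0.20 after acute and 0.20 and 0.22 after chronic L-DOPA. These transcripts were also the least abundant, with group means of 0.0938 to 0.447 CPM for the long and 0.0153 to 0.235 CPM for the short ones, against 0.737 to 7.71 and 0.667 to 7.39 CPM for the long and short ones that reach the 3′ part.

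**Figure D3:**
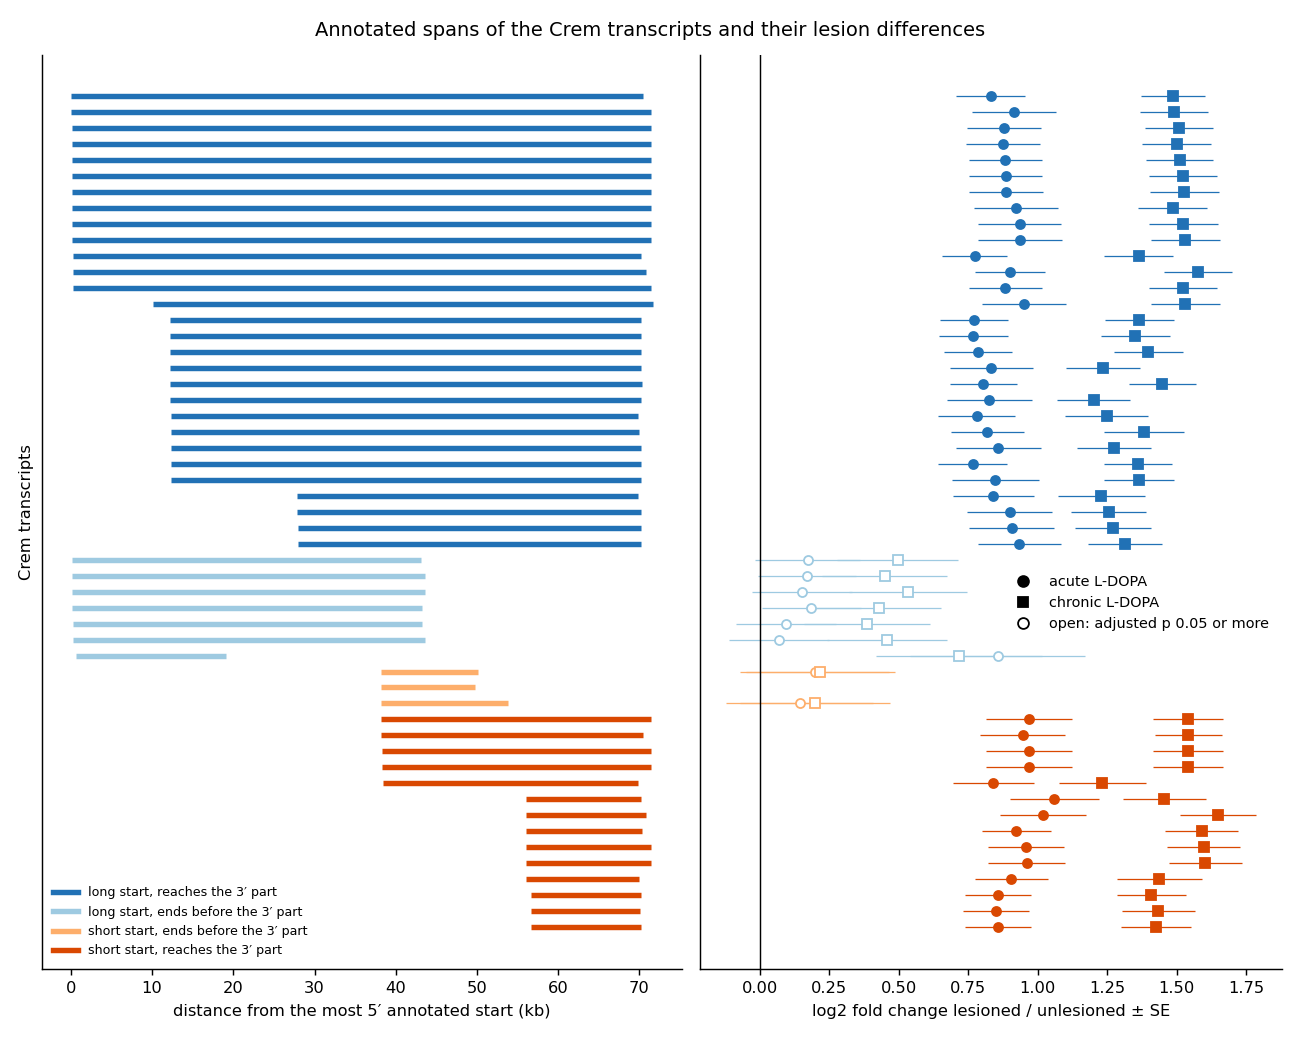
Left, annotated span of each of the 53 Crem transcripts as distance in kb from the most 5′ start; right, log2 fold change between lesioned and unlesioned striatum with SE, for acute (circles) and chronic L-DOPA (squares), open where the adjusted p was 0.05 or more. Transcripts that reach the 3′ part lie between 0.77 and 1.06 (acute) and between 1.20 and 1.65 (chronic), and those that end before it are open throughout; 1 transcript could not be tested and shows its span only.

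A short and a long transcript that share no exon were then set against each other. NM_001110854 (chr18:3266352-3281745, 2029 bases, 4 exons) starts in the most 3′ cluster, and NM_001110851 (chr18:3294164-3337587, 1587 bases, 5 exons) covers the 5′ exons only. The short transcript was at 3.59, 3.07 and 2.75 CPM in the unlesioned and at 7.25, 6.20 and 4.84 CPM in the lesioned acute libraries, and at 2.26, 2.76 and 2.31 against 6.70, 8.73 and 6.74 CPM in the chronic ones. The 5′ transcript was at 0.427, 0.410 and 0.360 against 0.500, 0.440 and 0.401 CPM in the acute and at 0.368, 0.284 and 0.276 against 0.353, 0.490 and 0.410 CPM in the chronic libraries, with 31 to 75 reads each. The sides were apart for the short transcript and overlapped for the 5′ transcript. In edgeR the short transcript differed between the sides by 0.96 ± 0.14 (adjusted p = 0.000819) and 1.60 ± 0.13 (adjusted p = 2.45e-05) after acute and chronic L-DOPA, and the 5′ transcript by 0.17 ± 0.18 (adjusted p = 0.572) and 0.45 ± 0.23 (adjusted p = 0.244).

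The ratio of the 2 read counts within a library does not depend on its depth. It was 8.41, 7.49 and 7.65 in the unlesioned and 14.5, 14.1 and 12.1 in the lesioned acute libraries. In the chronic libraries it was 6.125, 9.74 and 8.39 on the unlesioned and 18.97, 17.8 and 16.4 on the lesioned side. Each lesioned library thus lay above all unlesioned ones, and each lesioned chronic library above all lesioned acute ones. The ratio was 1.72-fold higher on the lesioned side after acute and 2.23-fold higher after chronic L-DOPA, and 1.31-fold higher in the lesioned chronic than the lesioned acute group. In a two-sided exact permutation test each of these 3 gave p = 0.10, the smallest that 3 against 3 libraries can give (0.133 adjusted over 4 comparisons). Between the unlesioned groups the ratio differed by 1.01-fold (exact permutation p = 1.0). The 3′ exons counted on the short transcript belong to long forms too, so the ratio sets the 3′ against the 5′ exons and is not a count of ICER molecules.

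**Figure D4:**
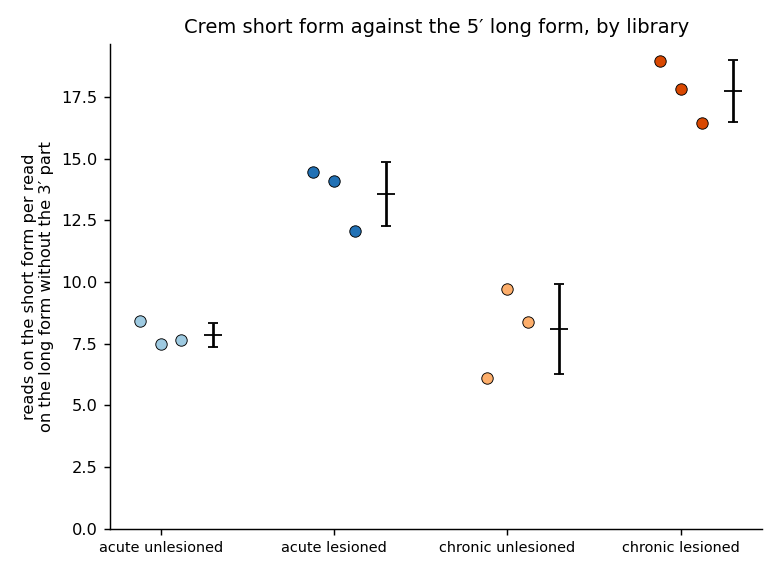
Reads on the short Crem transcript NM_001110854 per read on the 5′ long transcript NM_001110851, for each of the 12 libraries on a linear axis from 0, with mean and SD by group. The means are 7.85 and 8.08 in the unlesioned groups, 13.6 in the lesioned acute and 17.7 in the lesioned chronic group.

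The exons shared with the short form also dominate the counts of the long lead transcript. The reads on NM_001110854 amounted to 87.8% to 96.4% of those on ENSMUST00000082141 in the 12 libraries, although only 69.8% of the exonic bases of the latter lie in the span of the short transcript. The percentage was between 87.8% and 92.7% in the unlesioned and between 93.5% and 96.4% in the lesioned libraries, without overlap. On the annotation, 103 of 5937 exonic bases of Crem (1.73%) are also exonic in Gm6225 on the opposite strand, and whether the counting used strand is not stated.

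Atf4, the translation-controlled factor of the integrated stress response, rose on the lesioned side after both treatments. Its lead transcript NM_009716 (chr15:80085614-80087971, plus strand, mm9, 3 exons) was at 21.6, 18.7 and 19.1 CPM in the unlesioned and 41.0, 39.8 and 50.1 CPM in the lesioned acute libraries. In the chronic libraries it was at 14.7, 17.4 and 14.1 CPM on the unlesioned and 34.5, 34.2 and 38.6 CPM on the lesioned side. The sides did not overlap, and each chronic group lay below the acute group of its side. The lesion difference was 1.14 ± 0.09 (edgeR adjusted p = 5.99e-06, 2.21-fold) and 1.22 ± 0.10 (adjusted p = 2.18e-05, 2.33-fold) after acute and chronic L-DOPA, and all 4 transcripts were higher in both.

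Between the treatments Atf4 did not pass the test on either side. The log2 difference was -0.29 ± 0.10 in the lesioned striatum (edgeR adjusted p = 0.0576) and -0.37 ± 0.09 in the unlesioned striatum (adjusted p = 0.0610). The former passed in DESeq2 (adjusted p = 0.0429) and in the fit over all 12 libraries (adjusted p = 0.0461), and the latter in DESeq2 (adjusted p = 0.00932), with no filter on low counts (adjusted p = 0.0317) and without the library with choroid plexus RNA (-0.47, adjusted p = 0.0034).

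Atf5, a relative of Atf4 that is likewise regulated at translation, was slightly higher on the lesioned side after acute L-DOPA. Its lead transcript NR_033136 (chr7:52067626-52072028, minus strand, mm9) was at 4.49, 4.65 and 5.06 CPM in the unlesioned and 6.09, 5.40 and 6.13 CPM in the lesioned acute libraries, a log2 difference of 0.32 ± 0.08 (edgeR adjusted p = 0.0190). After chronic L-DOPA it was at 3.52, 4.05 and 3.15 against 3.38, 3.79 and 3.20 CPM, and the sides overlapped (-0.04 ± 0.12, adjusted p = 0.859). The acute call was lost without the first (adjusted p = 0.0814) or the second (adjusted p = 0.0724) unlesioned library and in the fit over all 12 libraries (adjusted p = 0.0614), while all 5 transcripts were higher with all libraries in. In these 3 fits 1, 0 and 1 of the 5 were higher. The difference of the lesion differences was -0.36 ± 0.14 (adjusted p = 0.183), and with the replicate block -0.36 (adjusted p = 0.0362).

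In the lesioned striatum Atf5 was lower after chronic than after acute L-DOPA by -0.77 ± 0.10 on the log2 scale (edgeR adjusted p = 0.000441), or 0.588 times, and all 5 transcripts were lower, by -0.77 to -0.96. In the unlesioned striatum the lead transcript differed by -0.41 ± 0.10 (adjusted p = 0.0596) and 1 of 5 transcripts, NM_172336, was lower (-0.53, adjusted p = 0.0405). The difference of the lead transcript passed in DESeq2 (adjusted p = 0.021), with no filter on low counts (adjusted p = 0.035), in the fit over all 12 libraries (adjusted p = 0.0426) and without the library with choroid plexus RNA (-0.51, adjusted p = 0.005). No Atf5 transcript was called without any 1 of the acute libraries, or without chronic replicate 1 or 3. The same held with the replicate block, but the replicate numbers do not pair the treatments. In the same lesioned comparison 5 of 5 oligodendrocyte markers were lower (median log2 difference -0.82). Their sum ranged from 1807 to 2930 CPM in the acute and from 967.0 to 1797 CPM in the chronic libraries. Also lower were 3 of 5 astrocyte, 3 of 5 microglia, 2 of 3 blood and 3 of 4 D2 neuron markers. Higher were 4 of 5 D1 neuron markers (median 1.06) and 2 of 5 general markers of medium spiny neurons. Over all genes 12.5% were higher and 13.1% lower. The part of these markers in the Atf5 difference was not tested. On the annotation 82 of 1992 exonic bases of Atf5 (4.12%) are exonic in Nup62 and in Il4i1 on the opposite strand.

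Atf6, the membrane-bound sensor of stress in the endoplasmic reticulum, was lower on the lesioned side after acute L-DOPA. NM_001081304 (chr1:172634588-172797902, minus strand, mm9, 16 exons) was at 23.8, 24.8 and 26.2 CPM in the unlesioned and 20.5, 21.1 and 17.9 CPM in the lesioned acute libraries, without overlap. In the chronic libraries it was at 25.3, 23.2 and 25.4 against 27.5, 21.0 and 24.5 CPM, with overlap. The log2 differences were -0.33 ± 0.07 (edgeR adjusted p = 0.0114) and -0.02 ± 0.10 (adjusted p = 0.938), and 8 of 9 transcripts were lower after acute and 0 of 9 after chronic L-DOPA, 0 of them at an unadjusted p under 0.05 and 0 in DESeq2. The acute call of the lead transcript was lost without the third unlesioned library (-0.29, adjusted p = 0.0505), where 1 of 9 transcripts was lower, and 4 were lower in the fit over all 12 libraries.

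The treatments differed in Atf6 by 0.30 ± 0.10 in the lesioned striatum (edgeR adjusted p = 0.0606), which passed in DESeq2 (adjusted p = 0.0431), with no filter on low counts (adjusted p = 0.0407), in the fit over all 12 libraries (adjusted p = 0.0281) and without the second lesioned chronic library (0.40, adjusted p = 0.00762). There 4 of its 9 transcripts were higher, by 0.37 to 0.38 on the log2 scale, and 0 when any 1 of the acute libraries or chronic replicate 1 or 3 was left out. The difference of the lesion differences was 0.31 ± 0.13 (adjusted p = 0.209), and without the second lesioned chronic library 0.41 (adjusted p = 0.0418).

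The constitutive activators Creb1 and Atf1 and the kinase-responsive factors Atf2 and Atf7 did not pass the test by their lead transcripts in the fit without a block. Creb1 NM_009952 (chr1:64579378-64651122, plus strand, mm9) was at 9.17 to 10.95 CPM in the unlesioned and 7.25 to 9.41 CPM in the lesioned acute libraries, and at 8.58 to 9.43 against 7.64 to 9.56 CPM in the chronic ones. Its acute log2 difference was -0.23 ± 0.10 (edgeR adjusted p = 0.147), and with the replicate block -0.23 ± 0.06 (adjusted p = 0.01). Of 20 Creb1 transcripts tested, 2 were lower after acute L-DOPA, AK032372 and AK014391 (both -0.35, adjusted p = 0.0283 and 0.0321), which are single-exon transcripts in the last part of the gene (chr1:64646233-64648583). With the replicate block 5 were lower, against 10.4% of all transcripts, and without the block 0 were lower when unlesioned replicate 1 or 2 or lesioned replicate 2 or 3 was left out. After chronic L-DOPA 0 of 20 were called, 0 at an unadjusted p under 0.05 and 0 in DESeq2.

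Atf1 NM_007497 (chr15:100058290-100091679, plus strand, mm9) ranged from 1.02 to 1.54 CPM over the 12 libraries. Atf2 NM_001025093 (chr2:73654578-73730685, minus strand) ranged from 19.6 to 25.1 CPM and Atf7 NM_001130059 (chr15:102359686-102424171, minus strand) from 4.36 to 6.33 CPM. The lesion differences of the 3 genes after acute L-DOPA were -0.12 ± 0.13, -0.14 ± 0.07 and 0.08 ± 0.08 on the log2 scale (edgeR adjusted p = 0.595, 0.200 and 0.573). After chronic L-DOPA they were -0.08 ± 0.13, -0.16 ± 0.08 and -0.18 ± 0.09 (adjusted p = 0.746, 0.266 and 0.251). In both comparisons edgeR and DESeq2 called 0 transcripts of these genes; at an unadjusted p under 0.05, 2 of 37 Atf2 transcripts were lower after acute and 5 after chronic L-DOPA, and 0 of Atf1 and Atf7. With the replicate block 1 Atf2 transcript, AK145887, was lower after acute L-DOPA (-0.16, adjusted p = 0.0396).

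Per kilobase of transcript, the scale on which genes can be compared, Atf4 had the highest level in every group and Atf3 moved most in the order. In the unlesioned acute group the means ran from Atf4 (11.5 CPM per kb) over Atf2 (5.59), Atf6 (3.34) and Atf5 (2.61) to Crem (1.24), Creb1 (1.18), Atf7 (0.829), Atf1 (0.566) and Atf3 (0.286), and only Crem and Creb1 overlapped among neighbours. In the lesioned acute group Atf3 stood second at 7.54 ± 1.57 CPM per kb (SD, n = 3), behind Atf4 at 25.3 ± 3.27 and ahead of Atf2 at 5.07 ± 0.345, without overlap. In the unlesioned chronic group it was last again (0.110). In the lesioned chronic group Atf3 was at 3.08 ± 0.816 CPM per kb, and its range overlapped those of its neighbours Atf6 (3.27) and Crem (2.74). Crem is placed here by its long lead transcript, and its place depends on that choice. The short transcript NM_001110854 was at 3.64 ± 0.573 CPM per kb in the same group.

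Between the treatments, Atf3 was the member called by its lead transcript on both sides and Atf5 on the lesioned side. In the lesioned striatum 4 of 159 member transcripts were higher and 9 lower after chronic L-DOPA (edgeR; background 12.1% and 11.2%), the 9 being those of Atf3 and Atf5 and the 4 those of Atf6. By lead transcript 0 of 9 genes were higher and 2 lower, against 12.5% and 13.1% of all genes, and the treatments lay apart downwards in Atf3, Atf4, Atf5 and Atf7 and upwards in 0 genes (21.7% and 20.4% of all genes). In the unlesioned striatum 0 were higher and 4 of 161 lower (background 0.969% and 1.64%), 3 of Atf3 and 1 of Atf5, and by lead transcript 0 of 9 genes were higher and 1, Atf3, lower (1.07% and 2.0% of all genes). The treatments lay apart downwards in Atf3, Crem, Atf4 and Atf5 and upwards in 0 genes, against 14.3% and 12.1% of all genes. In this comparison 0 member transcripts were higher at an unadjusted p under 0.05 or in DESeq2, while 39 were lower at that p, and 34 were called without the library with choroid plexus RNA. The test of the difference between the lesion differences called 0 of 161 member transcripts and 0 of 9 lead transcripts in edgeR, against 4.52% of all transcripts and 5.1% of all genes, with 45 at an unadjusted p under 0.05 and 14 in DESeq2, all 14 of Crem. With the replicate block 36 were called: 33 of Crem, higher after chronic L-DOPA, and 3 of Atf5, lower, against 12.1% of all transcripts called with that block. Of the 33, 21 were among the 29 long and 12 among the 14 short transcripts that reach the 3′ part.

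Related factors outside the 9 genes showed 1 large change. Of 14 listed relatives 11 could be tested, and 2 were higher after acute L-DOPA, Creb3l1 (0.84) and Ddit3 (0.61), the gene of the stress factor CHOP, against 8.16% of all genes. After chronic L-DOPA Creb3l1, a membrane-bound factor that is activated by stress of the endoplasmic reticulum, was higher by 3.09 ± 0.15 on the log2 scale (edgeR adjusted p = 4.42e-07) and Ddit3 by 0.90, and Crebl2 was lower by -0.43, against 8.45% and 5.2% of all genes. With the replicate block Creb3 was also lower after acute L-DOPA (-0.20), and Creb3l2 was higher (0.37) and Creb5 lower (-0.52) after chronic L-DOPA. That block called 13.3% of all genes higher and 11.8% lower after acute and 12.8% higher and 11.4% lower after chronic L-DOPA. Creb3l1 had group means of 0.369 ± 0.0588 and 0.371 ± 0.0558 CPM in the unlesioned acute and chronic groups, 0.653 ± 0.0913 CPM in the lesioned acute and 3.15 ± 0.329 CPM in the lesioned chronic group (SD, n = 3). Its lesion difference was larger after chronic than after acute L-DOPA by 2.25 ± 0.23 (adjusted p = 3.93e-05). Its acute call was lost without the first unlesioned library (0.72, adjusted p = 0.0507), and that of Crebl2 without unlesioned replicate 1 or 2 or lesioned replicate 1 or 3 of the chronic libraries (-0.37 to -0.41, adjusted p up to 0.104).

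Of 21 coactivators and kinases of CREB, 2 were higher and 4 lower after acute L-DOPA, and 3 higher and 2 lower after chronic L-DOPA. Over all genes 8.16% were higher and 7.16% lower in the former and 8.45% and 5.2% in the latter. The largest rise was that of Sik1, the salt-inducible kinase that holds CRTC coactivators in the cytoplasm, by 1.55 ± 0.07 (edgeR adjusted p = 2e-08) and 3.07 ± 0.09 (adjusted p = 1.28e-08). Its lesion difference was larger after chronic L-DOPA by 1.52 ± 0.10 (adjusted p = 3.62e-07). Crtc3 was higher by 0.30 after acute L-DOPA, and Camk4 (-0.49), Prkar2b (-0.49) and Rps6ka5 (-0.43), kinase genes or a regulatory subunit of protein kinase A, were the largest falls. After chronic L-DOPA Prkacb (0.38) and Prkar1b (0.30), a catalytic and a regulatory subunit of protein kinase A, were higher, and Rps6ka5 (-0.55) and Crtc1 (-0.36) lower. In the lesioned striatum 6 of the 21 were higher and 1 lower after chronic than after acute L-DOPA, against 12.5% and 13.1% of all genes. Of the small differences, that of Crtc3 lost its call without any unlesioned or the first lesioned acute library (adjusted p up to 0.0660), those of Prkacb, Prkar1b and Crtc1 without unlesioned replicate 1 or 3 or lesioned replicate 1, among others, of the chronic libraries (adjusted p up to 0.0874, 0.108 and 0.128).

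Of 25 genes known to have CREB sites, 18 were higher and 4 lower on the lesioned side after acute L-DOPA (median log2 difference 1.27) and 21 higher and 0 lower after chronic L-DOPA (median 2.00; 0 also lower at an unadjusted p under 0.05 and in DESeq2), beside medians of 0.02 and -0.01 over all lead transcripts. Over all genes 8.16% were higher and 7.16% lower after acute and 8.45% and 5.2% after chronic L-DOPA. The 4 lower calls were 2 without the first unlesioned or the second lesioned acute library. This list, like the other lists here, was written with earlier results of these data known, and none is independent evidence of its direction. Fosb, Fos and Arc gave the largest rises in both, at 4.67, 4.39 and 3.31 after acute and 4.94, 4.62 and 3.74 after chronic L-DOPA. The largest falls after acute L-DOPA were those of Bdnf (-1.88 ± 0.56, adjusted p = 0.0458, at 0.327 and 0.0844 CPM), Pdyn (-0.76) and Pde4b (-0.34). The Bdnf call was lost without unlesioned replicate 1 or 3 or lesioned replicate 2 or 3, with values of -1.16 to -1.98 (adjusted p up to 0.203), and with 1 transcript per gene (adjusted p = 0.0501), with sums over transcripts (adjusted p = 0.0619) and in the fit over all 12 libraries (adjusted p = 0.0891). The difference between the lesion differences was higher after chronic L-DOPA in 11 of the 25, against 5.1% of all genes called in either direction. Pdyn, the gene of the opioid precursor of D1 neurons, was at 3.26, Dusp1 at 1.17 and Scg2 at 1.06. In the same test 4 of 5 markers of D1 neurons, Pdyn among them, were higher (median 0.98) and 1 of 4 markers of D2 neurons was lower. The part of these marker shifts was not tested.

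Among 16 targets of Atf4, 8 were higher and 0 lower after acute L-DOPA (median 0.28; 1 lower at an unadjusted p under 0.05 and 0 in DESeq2), against 8.16% higher and 7.16% lower of all genes, led by Ppp1r15a (2.32 ± 0.10, edgeR adjusted p = 1.78e-08), Cebpb (1.14) and Sesn2 (0.72). Ppp1r15a encodes the phosphatase subunit that ends the stress response. After chronic L-DOPA 5 were higher and 1 lower (median 0.14), against 8.45% and 5.2% of all genes, with Ppp1r15a at 1.29, Ddit3 at 0.90, Cebpb at 0.75 and Trib3 at -1.08. With the replicate block Ddit4 (-0.23) and Phgdh (-0.41) were lower as well. The lesion difference of Ppp1r15a was smaller after chronic than after acute L-DOPA, by -1.03 ± 0.23 (adjusted p = 0.0175). The count of 8 fell to 5 without the first or second unlesioned or the first lesioned acute library, or in the fit over all 12 libraries. The chronic call of Cebpb was lost without the third unlesioned (0.71) or first lesioned library (0.71), that of Trib3 without any library but the second unlesioned one, and that of the Ppp1r15a interaction without the first (-0.99) or second (-0.98) unlesioned acute or the first unlesioned chronic library (-0.93).

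Among 13 chaperones and other targets of Atf6, 2 were higher after acute L-DOPA, Hspa5 (0.67), the main chaperone of the endoplasmic reticulum, and Hsp90b1 (0.36), and Hspa5 (0.82) alone after chronic L-DOPA. These shares compare with 8.16% and 8.45% of all genes. With the replicate block 3 were also lower after acute L-DOPA, Sdf2l1 (-0.28), Pdia4 (-0.18) and Calr (-0.16), and Pdia4 was lower after chronic L-DOPA (-0.26). The acute calls were lost without the second lesioned library (0.62 for Hspa5 and 0.28 for Hsp90b1) and in the fit over all 12 libraries (adjusted p = 0.0632 and 0.0934). That of Hsp90b1 was also lost without lesioned replicate 1 or unlesioned replicate 2 or 3, with 1 transcript per gene (adjusted p = 0.0554) and with sums over transcripts (adjusted p = 0.102). The chronic call of Hspa5 was lost without unlesioned replicate 1 or 3 or lesioned replicate 3 (0.73 to 0.89) and in DESeq2 (adjusted p = 0.0533). More of them differed between the treatments. After chronic L-DOPA 10 of 13 were lower than after acute L-DOPA in the lesioned striatum (median -0.59) and 8 of 13 in the unlesioned striatum (median -0.60), beside 13.1% and 2.0% of all genes lower and medians of -0.024 and -0.0043 over all lead transcripts. Of those that passed the test, Hsp90b1 (-0.87), Sdf2l1 (-0.83) and Pdia4 (-0.81) fell most in the former and Sdf2l1 (-0.85), Hspa5 (-0.77) and Xbp1 (-0.65) in the latter. The count in the unlesioned striatum was 0 without the first or second acute or the third chronic library, 1 without the first chronic one and 0 with counts summed over transcripts, whereas in the lesioned striatum it lay between 7 and 11 with each library left out and under the other alternatives run on the lists. In the lesioned comparison the oligodendrocyte markers moved the same way, as given for Atf5, and their part was not tested.

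**Figure D5:**
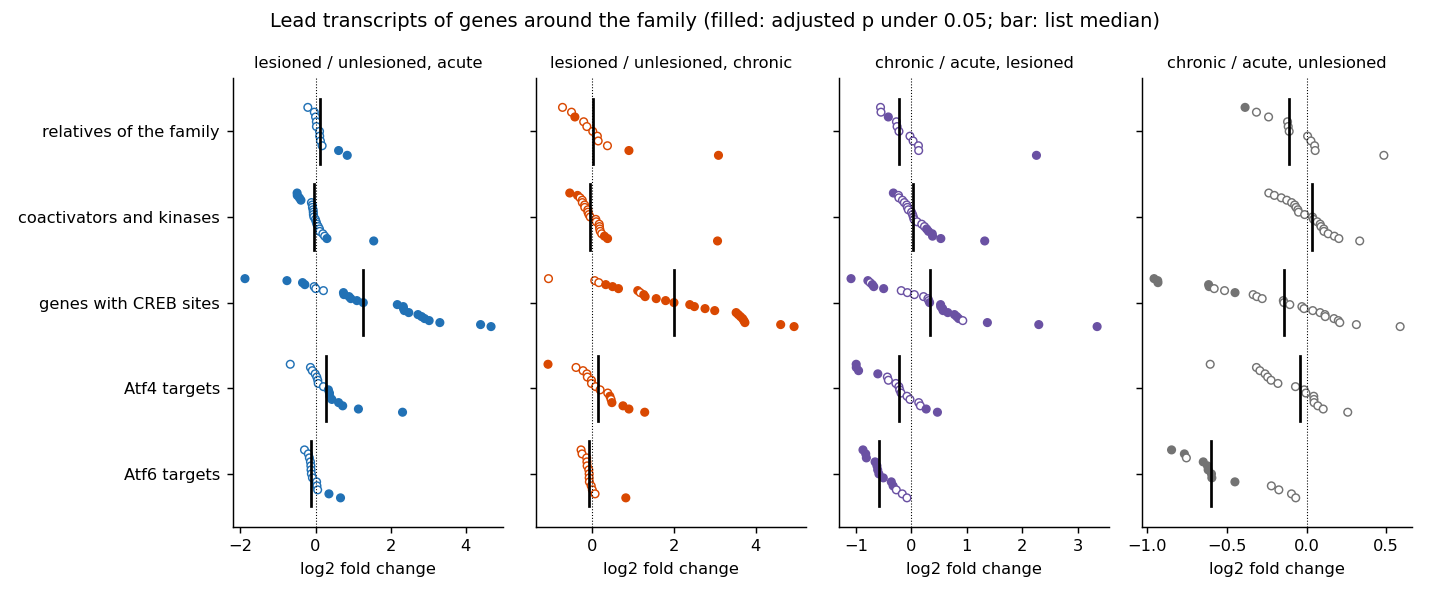
Log2 fold change of the lead transcript of each gene in 5 lists around the family, in the 4 comparisons; each point is a gene, filled at an adjusted p under 0.05, and the bar is the list's median. Genes with CREB sites lie to the right in both lesion comparisons (medians 1.27 and 2.00), and Atf6 targets to the left in both treatment comparisons (medians -0.59 and -0.60).

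The genes whose level followed that of a member most closely were sought among 12794 genes over the 12 libraries, as Pearson's r of log2 CPM, as a description. The libraries share treatment and side, so many genes give a high r. For Atf3 these were Nfil3 (r = 0.994), Fos (0.994), Egr1 (0.992), Btg2 (0.990) and Gadd45g (0.990), whose means were highest in the lesioned acute group, as for Atf3. For Crem they were Gem (0.979), Homer1 (0.979), Tra2b (0.970), Ndel1 (0.968) and a transcript without a gene name, ENSMUST00000074759 (0.967), whose means were highest in the lesioned chronic group, as for Crem. Homer1, for example, had means of 38.2 and 112.8 CPM in the unlesioned and lesioned acute groups and of 27.6 and 159.8 CPM in the chronic ones, and Nfil3 had 1.49 and 8.94 against 1.11 and 5.44 CPM.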

How the data were processed

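RNA-seq libraries of the lesioned and unlesioned striatum after acute or chronic L-DOPA were used, 12 in all; other data of the study were not analysed here. The authors made TruSeq libraries, mapped reads to mm9 with the Genomatix Mining Station and deposited, for each transcript, unnormalized counts of the reads on it; settings for strand and multiply mapped reads are not given in the sources used here. The deposited counts, 87695043 to 173116525 per library, entered all tests. The 296 transcripts that name no gene held 0.0485% of the counts.

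The 4 comparisons of 2 groups were fitted on 6 libraries each, and the difference of the lesion differences on 12, in edgeR 4.0.16 (limma 3.58.1, R 4.3.3) with TMM, filterByExpr by group and glmQLFTest, without a block. P-values were adjusted after Benjamini and Hochberg over all transcripts tested. Members and lists were chosen with earlier results of these data known. Named genes are the members and, per list and comparison, up to 3 rises and 3 falls past the test. Likeness used log2(CPM + 0.1) of genes with a mean of at least 1 CPM. Scripts were tested on simulated data. Further steps ran in Python 3.11.15 with numpy 2.4.6 and pandas 2.3.3, and plots in matplotlib 3.10.9.

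The same-numbered libraries of the 2 sides deviated together from their group means across 12794 genes (r = 0.472, 0.465 and 0.385 after acute, 0.515, 0.572 and 0.159 after chronic L-DOPA), and every r was over the limit of 0.1, so the numbers pair the sides. The main fits leave this pairing out, so a difference that failed there may pass in the paired fit, as for Creb1 and Crem. Values with the block are given where it changes a call of a member. Alternatives were DESeq2's size factors, DESeq2 1.42.0, no filter, 1 transcript per gene, sums over transcripts, the replicate block, all 12 libraries in one fit, each library left out, and an adjusted p under 0.01.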

Additional observations from a re-analysis of the deposited data

Results flagged for a closer look

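In 15 of 85 list genes tested the difference between lesioned and unlesioned striatum itself differed between acute and chronic L-DOPA, against 5.1% of all genes. This was tested by the interaction term fitted in edgeR over the 12 libraries. The lists were written with earlier results of these data known, so the count is not independent evidence. Of the 15, 14 had the higher value after chronic L-DOPA and 1 the lower. In the same test 4 of 5 markers of D1 neurons, Pdyn among them, were higher (median 0.98) and 1 of 4 markers of D2 neurons was lower. Their part in these calls was not tested. With the replicate number as block 28 were called, 21 higher and 7 lower after chronic L-DOPA, against 13.4% of all genes with that block. Among the 7 that the rule for named genes took, it was larger after chronic L-DOPA for Pdyn (3.26 on the log2 scale), Creb3l1 (2.25), Sik1 (1.52), Dusp1 (1.17), Scg2 (1.06) and Prkacb (0.43), and smaller for Ppp1r15a (-1.03). The Prkacb call was lost when any one of 7 libraries was left out: any unlesioned acute library, lesioned acute replicate 1 or 3, unlesioned chronic replicate 3 or lesioned chronic replicate 1 (0.35 to 0.45, adjusted p up to 0.0729 in edgeR). The Ppp1r15a call was lost without the first (-0.99) or second (-0.98) unlesioned acute or the first unlesioned chronic library (-0.93). None of the 9 members was called by its lead transcript in this test, and with the replicate block Crem (0.63, adjusted p = 0.00118) and Atf5 (-0.36, adjusted p = 0.0362) were. The test for a single outlying library needs groups of at least 4 and was not run on these groups of 3.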

How the results depend on the processing

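Of 1715 recomputed values of 127 results, 1555 kept their direction and side of the threshold, 103 lost the call, 25 gained one and 32 changed sign. After chronic L-DOPA 51 member transcripts differed between the sides under every alternative on transcripts. After acute L-DOPA the count was 66, and 57 to 66 with a library left out. With 1 transcript per gene, and with counts summed over a gene, 9 genes were tested instead of 161 transcripts, so the counts were 5 and 5 (acute sides), 3 and 3 (chronic sides), 2 and 2 (lesioned striatum, chronic against acute) and 1 and 0 (unlesioned striatum).

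In the lesioned striatum 13 transcripts differed between treatments, 22 with no filter on low counts, 29 in the fit over all 12 libraries and 9 to 17 with a library left out. In the unlesioned striatum 4 did, 11 in DESeq2, 12 with no filter, 7 in the fit over all 12, 0 at an adjusted p under 0.01, and 0 to 34 with a library left out. The interaction called 0, 14 in DESeq2, 3 with no filter, and 0 to 12 with a library left out. With the replicate number as a block the counts were 70, 51, 20, 3 and 36 for acute, chronic, lesioned, unlesioned and interaction. The numbers do not pair the treatments (r = -0.148 to 0.233), and beside the values given with the results the block gave Atf4 in the lesioned striatum -0.28 with a call, took that of Asns (0.27) away, and gained calls for 3 of Crem, Ppargc1a and Dnajc3 in the lesioned and Npas4 and Pdia4 in the unlesioned striatum, for Ep300, Rgs2 and Psat1 between the acute and Camk4, Cartpt and Sesn2 between the chronic sides; it changed no other call of a member or list gene between 2 groups. In each case the cause was not tested.

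Small log2 differences changed sign, none of them called. With counts summed over a gene these were Atf6 between the chronic sides (0.00072), Atf2 (0.0090) between the treatments in the lesioned and Atf2 (0.019) and Atf7 (-0.010) in the unlesioned striatum, where Atf2 with 1 transcript per gene was 0.0043. With a library left out, values ran from -0.016 to 0.15 (Atf7, acute sides), from -0.12 to 0.034 (Creb1), -0.13 to 0.056 (Atf5) and -0.11 to 0.091 (Atf6, all chronic sides), from -0.067 to 0.12 (Creb1), -0.084 to 0.032 (Atf2) and -0.22 to 0.0052 (Crem NM_001110851) in the lesioned and from -0.032 to 0.037 (Atf2) and -0.041 to 0.024 (Atf6) in the unlesioned striatum. For the interaction they ran from -0.15 to 0.29 (Atf3), -0.079 to 0.12 (Atf1) and -0.079 to 0.036 (Atf2). Counting error is largest for transcripts with few reads, such as Atf3 on the unlesioned side (21 to 103 reads) and the 5′ Crem transcript (31 to 75).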
